A study of Mus musculus with 8 samples.

Results

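The effect of losing Kdm6b in XY mouse gonads was measured by comparing polyadenylated RNA of XY Kdm6b-null and XY wild type gonads at embryonic day 11.5 (E11.5). The comparison covers the 16821 genes, of 48440 in the deposited XY table, whose normalized count averaged at least 10 over the 4 XY libraries. There were 2 libraries of each genotype, and per the labels each pooled 2 pairs of gonads from untreated embryos that had been sexed and genotyped. The XX wild type and XX Kdm6b-null libraries, also 2 each at E11.5, serve below only for comparison. The sources used here state neither which exons the null allele has lost nor the mouse strain. Whether the pools of 1 genotype came from separate litters is not in the labels, so p-values measure only the spread between these pools. The labels give the cell type of the XY libraries as pre-Sertoli, but the tissue as gonad, and they describe no sorting.

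KDM6B is a histone demethylase that removes methyl groups from lysine 27 of histone H3, a mark placed by Polycomb repressive complexes on silent genes. In the XY mouse gonad, supporting cell precursors switch on the Y-linked transcription factor gene Sry for a short time around this stage, and SRY then raises Sox9, which sets the Sertoli cell fate. Before that step the gonads of both sexes share a set of factors, among them GATA4, NR5A1, LHX9 and WT1, that are known to be needed for gonad growth or for Sry expression.

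The promoters of Sry, Inhbb and Lhx9 are shown because these genes of the early gonad and testis carry the lower values described below. Each run covers 250 bases before to 50 after the transcription start annotated by RefSeq (GRCm38.p6). It reads 5′ to 3′ on the gene's strand and has CG dinucleotides in capitals. CG reads the same on both strands.
Sry, chrY:2663609-2663908, minus strand: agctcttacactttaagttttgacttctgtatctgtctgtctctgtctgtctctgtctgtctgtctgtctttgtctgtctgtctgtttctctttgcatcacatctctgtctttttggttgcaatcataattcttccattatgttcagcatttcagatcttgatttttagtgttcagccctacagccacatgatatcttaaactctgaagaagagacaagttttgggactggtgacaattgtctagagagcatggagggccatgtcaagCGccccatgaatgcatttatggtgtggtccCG
Inhbb, chr1:119422199-119422498, minus strand: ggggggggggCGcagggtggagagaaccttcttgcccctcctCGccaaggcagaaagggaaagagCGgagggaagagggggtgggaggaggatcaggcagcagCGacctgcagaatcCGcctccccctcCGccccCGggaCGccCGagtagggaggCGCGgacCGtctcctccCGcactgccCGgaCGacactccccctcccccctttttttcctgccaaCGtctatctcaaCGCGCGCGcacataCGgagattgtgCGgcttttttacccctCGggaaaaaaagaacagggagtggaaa
Lhx9, chr1:138842395-138842694, minus strand: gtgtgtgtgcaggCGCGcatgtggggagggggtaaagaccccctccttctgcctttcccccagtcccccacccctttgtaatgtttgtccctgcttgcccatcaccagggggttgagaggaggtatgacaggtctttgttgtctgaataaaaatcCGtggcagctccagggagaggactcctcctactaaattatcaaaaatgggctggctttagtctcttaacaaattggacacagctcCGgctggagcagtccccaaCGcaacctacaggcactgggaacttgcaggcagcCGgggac
The Sry window held 2 CG dinucleotides, the Lhx9 window 6 and the Inhbb window 23. Both CG dinucleotides of the Sry window lie after the annotated start, where the sequence opens with ATG. The annotated start of Sry may thus be that of its coding sequence, and its true transcription start was not tested. Of the 11642 tested genes with such a window, 79.4% had at least 10, and the median was 20. The Lhx9 window starts transcription 6133 bases inside the gene model of the deposited table, whereas the other 2 windows sit at the start of theirs. The files used here hold no chromatin data, so the sequences are given as context for the genes.

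Depth was even, at 19107103 to 19578786 counts in the 4 XY libraries, and a gene at 0 could still hold 3 counts, equal to 2.93 to 3.09 normalized counts. This limit covers counting error only. The replicate libraries differed by more than sampling noise, with a median chi-square per gene of 1.45 in wild type and 2.42 in the null. All 5 markers fixed for the Sertoli lineage (Sox9, Amh, Dhh, Sry and Cbln4) were detected in every library, with summed normalized counts of 582.6 to 1157. Sox9 made up most of each sum. It was also detected in the XX libraries, at 515 and 769 in wild type against 923 and 828 in the null. The sum is therefore not particular to XY supporting cells. Markers of endothelium summed to 10721 to 14705, of interstitial progenitors to 15607 to 19220, of embryonic red cells to 46208 to 158856 and of germ cells to 1520.5 to 3116. The values are therefore taken as those of whole gonads with attached cells. In such bulk samples, fewer cells of a type and less RNA per cell cannot be told apart.

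Kdm6b transcript was strongly lower in the XY null. It had 3399 and 3181 normalized counts in the wild type libraries and 1238 and 1037 in the null libraries, so that the null kept 34.6% of the wild type mean and the groups did not overlap. In the authors' deposited table Kdm6b fell with a DESeq2 log2 fold change of -1.53 (adjusted p = 8.2e-25). Kdm6b lies on chromosome 11 at 69398508 to 69413675 (GRCm38). Kdm6bos, an antisense transcript annotated inside Kdm6b, had 27.7 and 25.9 normalized counts in wild type but 0 in both null libraries. Against the limit of 3 counts per library it was at least 8.92-fold lower, and it fell in the authors' deposited table (adjusted p = 0.0087). The library protocol in the labels marks strand, but whether the counting used strand is not stated, so some reads may be shared between Kdm6b and Kdm6bos.

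The related demethylase genes did not separate the genotypes. Kdm6a, the X-linked H3K27 demethylase, had 1342 and 1429 normalized counts in wild type against 1351 and 1289 in the null (log2 fold change -0.07, SE 0.08). Uty, its Y-linked relative, had 790.4 and 734 against 813 and 725. For both the groups overlapped. Among 30 measured genes that write, read or remove H3K27 methylation or belong to Polycomb complexes, the median log2 fold change was -0.01. Ring1, a Polycomb ubiquitin ligase, had the smallest p, with 348 and 352 in wild type against 471 and 431 in the null (limma adjusted p = 0.86), and Eed, a core subunit of the methyltransferase complex, had 1242 and 1323 against 1034 and 1214. The 16 genes of H3K9 methylation and the 18 of the trithorax and enhancer H3K4 group had medians of 0.05 and 0.02.

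Over all genes, the authors' deposited table called 72 of the 16821 genes at an adjusted p under 0.05. Of these, 22 were higher in the null (0.131% of the genes tested) and 50 were lower (0.297%). Limma on log2(normalized count + 1), which was used here for all genes, called 0 (0%) after Benjamini-Hochberg adjustment, with a smallest adjusted p of 0.12. It called 2 genes each without wild type replicate 2, null replicate 1 or null replicate 2, and 0 without wild type replicate 1. At an unadjusted p under 0.05 limma had 355 genes higher (2.11%) and 479 lower (2.85%), together 834 where 841 are expected by chance. In all 72 of the authors' calls the wild type and null libraries did not overlap and the limma direction was the same, from the same libraries. Groups without overlap were common among all genes, with 2797 higher in the null (16.6%) and 2740 lower (16.3%). A gene is said below to have risen or fallen only where the authors' deposited table called it. Pairs of normalized counts are given as wild type replicates 1 and 2 against null replicates 1 and 2.

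The testis pathway had mostly lower values in the XY null. Of its 26 listed genes 22 were measured, with a median log2 fold change of -0.46, 19 negative values, 12 genes lower without overlap (16.3% of all genes were) and 0 higher. Unadjusted limma p was under 0.05 for 11 of the 22 measured genes, all lower (2.85% of all genes were lower so). The list was chosen with earlier results of these data known. Ptgds, Tesc, Hsd17b3 and Etd were below the minimum. The list's median was -0.52 in null replicate 1 and -0.51 in null replicate 2, each against the wild type mean, so the list medians of the null pools lay close together. Single genes of the list still differed between these pools, such as Sox9 at 1021 and 495 and Sry at 19.5 and 6.18. The median over all genes was 0.00.

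Sry (ENSMUSG00000069036.3, chromosome Y at 2662471 to 2663658) had 57.4 and 73.8 normalized counts in wild type against 19.5 and 6.18 in the null, the widest gap of the measured testis genes in log2 fold change (-2.45, SE 0.55). The lowest wild type library stood above the higher null library, but limma did not call the gene (adjusted p = 0.69), nor did the authors' deposited table (adjusted p = 0.084). The other Y-linked genes did not share this pattern: the 8 measured Y-linked genes had a median of -0.01, and Sry alone had non-overlapping groups. Inhbb (chromosome 1 at 119415465 to 119422248), the subunit of activin B and inhibin B, had 555 and 611 in wild type against 167 and 274 in the null. It fell in the authors' deposited table (log2 fold change -1.41, adjusted p = 6.1e-05), the sole gene of the testis list that did.

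Dmrt1, which maintains male fate later in life, had 126 and 137 normalized counts in wild type against 53.6 and 59.7 in the null (limma adjusted p = 0.42). Cbln4, a secreted protein gene activated early in Sertoli precursors, had 88.04 and 111 against 40.97 and 25.7 (adjusted p = 0.63). Inha, the subunit shared by the inhibins, had 298 and 336 against 204 and 215. All 3 were lower in both null pools than in either wild type pool, and none was called. The remaining testis genes lower without overlap were Cyp26b1, Nr0b1, Vnn1, Gadd45g, Col9a3, Cst9 and Dhh, with log2 fold changes of -1.40 to -0.43. Cyp26b1, which breaks down retinoic acid, had 1164 and 882 in wild type against 649.6 and 671 in the null, and Dhh, the hedgehog ligand of Sertoli cells, had 74.2 and 83.7 against 59.5 and 45.3.

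Sox9, Fgf9, Sox8 and Amh did not separate the genotypes. Sox9 had 910.1 and 767 normalized counts in wild type against 1021 and 495 in the null, so that the null pools lay on either side of wild type. Its log2 fold change was -0.23 (SE 0.33), and 0.29 without null replicate 2. Fgf9, whose secreted product supports Sox9 expression, had 112 and 57.8 against 78.03 and 82.3, and Sox8, a close relative of Sox9, had 98.9 and 136 against 103 and 97.8. Amh, the hormone that later removes the Müllerian duct, was near the minimum in every library, at 10.9 and 13.96 against 15.6 and 10.3. For these 4 genes the groups overlapped. Sox9 and Amh were also detected in every XX library, although Sry had 0 normalized counts there. How much of their XY values depends on Sry was not tested.

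**Figure D1:**
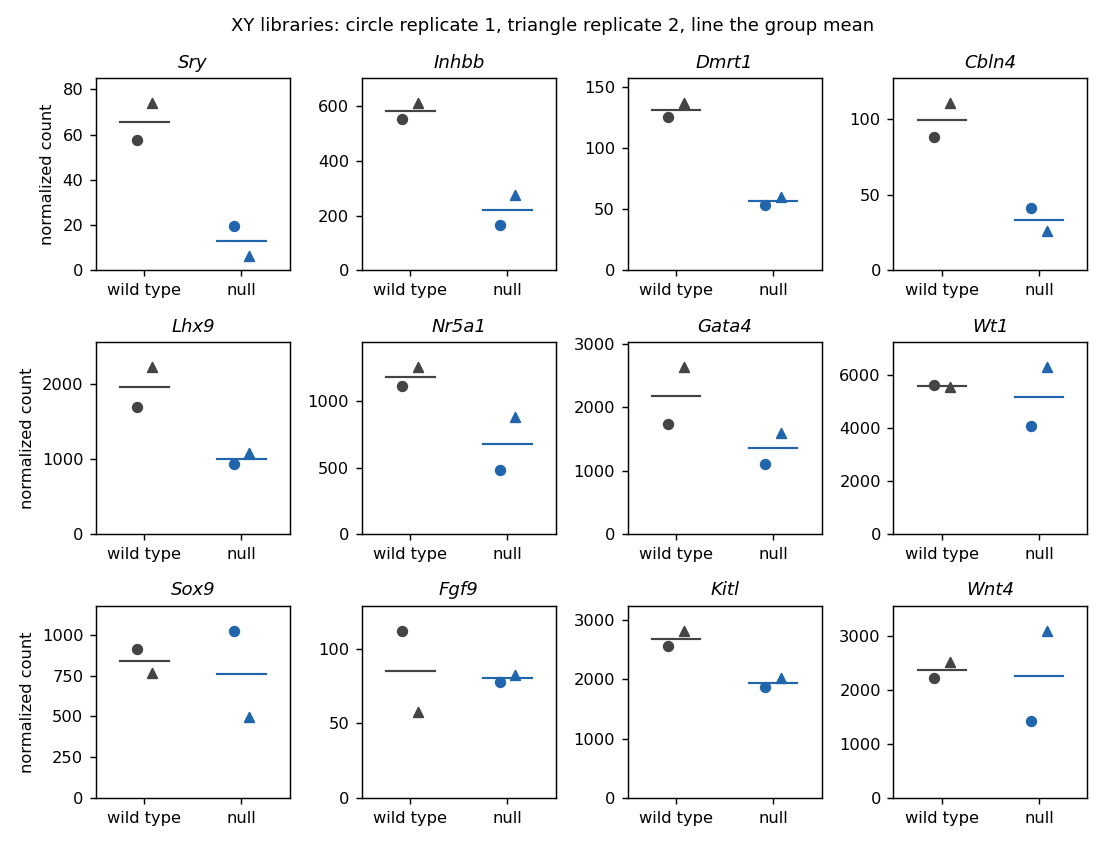
Normalized counts (y axis, from 0) of 12 genes in each XY wild type and XY Kdm6b-null library, with circles for replicate 1, triangles for replicate 2 and lines for group means. Sry, Inhbb, Dmrt1, Cbln4, Lhx9, Nr5a1, Gata4 and Kitl show no overlap between genotypes, whereas Wt1, Sox9, Fgf9 and Wnt4 overlap.

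The genes known to regulate Sry were split. Of 22 listed, 21 were measured (Insrr was below the minimum), with a median of 0.00, 6 lower and 1 higher without overlap (16.3% and 16.6% of all genes were). Lhx9, a homeobox gene of the forming gonad (chromosome 1 at 138825186 to 138848577), had 1699 and 2228 normalized counts in wild type against 929.6 and 1086 in the null. It fell in the authors' deposited table (log2 fold change -0.96, adjusted p = 3.4e-05). Nr5a1, the nuclear receptor that directs gonad and steroid gene expression, had 1114 and 1257 in wild type against 479.9 and 882 in the null. Gata4, a zinc finger factor needed to form the gonad, had 1730.2 and 2632 against 1113 and 1599.5. Neither was called (limma adjusted p = 0.9 and 0.97), although every null pool was below every wild type pool.

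Several other regulators of Sry had overlapping groups. Wt1 had 5639.7 and 5538 normalized counts in wild type against 4074 and 6297 in the null, Emx2, a homeobox factor of the gonad epithelium, had 2515 and 2810.3 against 1815 and 2987. Cbx2, a Polycomb subunit whose loss causes sex reversal, had 3115 and 2821 against 2917 and 3009. Kdm3a, the H3K9 demethylase that acts at Sry, had 3394 and 3816 against 3329 and 3736 (log2 fold change -0.03, SE 0.10). The kinase gene Map3k4 had 2043 and 1999.8 against 2026 and 2176. Gadd45g, which signals to that kinase and also counts in the testis list, had 387 and 476 against 326 and 309.8, lower in both null pools and not called.

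No gene of the ovary pathway was called in the XY null. Of 17 listed, 15 were measured, with a median of -0.17, 4 lower without overlap and 1 higher (16.3% and 16.6% of all genes were), and the median was -0.06 without wild type replicate 1 and 0.01 without null replicate 1. Wnt4, a secreted signal that favours ovarian fate, had 2217 and 2523 normalized counts in wild type against 1425 and 3089 in the null, and Rspo1, which amplifies that signal, had 642 and 583 against 429 and 745. In both genes null replicate 1 was the lowest and null replicate 2 the highest library. Fst, the gene of the activin-binding protein follistatin, had 298 and 219 against 261 and 145 and overlapped. Foxl2, the ovarian forkhead factor, was below the minimum, at 1.98 and 1.99 in wild type against 6.83 and 11.3 in the null. Nr0b1, an X-linked nuclear receptor that also counts in the testis list, had 163 and 175 against 78.03 and 113 (log2 fold change -0.84, limma adjusted p = 0.84).

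In signalling pathways near testis determination, single genes separated the genotypes while the list medians lay between -0.11 and 0.07. The 15 activin, inhibin and follistatin genes had a median of -0.11 with 5 lower without overlap (16.3% of all genes were). The median was -0.21 without null replicate 1 and -0.01 without null replicate 2. Besides Inhbb and Inha the 5 lower genes included Acvr1c, a receptor of the pathway, with 54.4 and 80.7 normalized counts in wild type against 34.1 and 26.8 in the null. The 16 measured retinoic acid genes had a median of 0.04, with Aldh1a1, a retinoic acid-making enzyme gene, at 411 and 436 against 200.9 and 290.3. Of the steroidogenic and adrenal list 11 genes were measured, with a median of 0.07, and of -0.04 without null replicate 2. Cyp11a1, the enzyme gene that starts steroid synthesis, had 82.1 and 149.5 against 37.1 and 66.9, lower without overlap.

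Among the genes that fell in the authors' deposited table were several secreted signals and growth genes. Kitl, the ligand that keeps germ cells alive and moving, had 2557 and 2811 normalized counts in wild type against 1872 and 2021 in the null (log2 fold change -0.46, adjusted p = 0.039 in the authors' deposited table). Wnt6, a Wnt ligand gene, had 464 and 394 against 209 and 199. Ccnd1, the cyclin that drives entry into S phase, had 2784 and 2781 against 1828 and 2124. Mir17hg, the host transcript of the miR-17 to miR-92 cluster of growth-promoting microRNAs, had 767 and 713 against 368 and 348 (authors' deposited table adjusted p = 9.3e-07). Each of these 4 genes was lower in both null pools than in either wild type pool. The 20 genes of DNA replication and mitosis had a median of -0.04, with Mki67 at 10947 and 11675 in wild type against 12184 and 11881 in the null.

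Several genes of membrane proteins, channels and receptors also fell in the authors' deposited table. Cacna1g, a T-type calcium channel gene, had 1916 and 1491 normalized counts in wild type against 1146 and 1032 in the null, and Atp2b3, a plasma membrane calcium pump gene, had 109.8 and 119 against 26.3 and 17.5. Aqp5, a water channel gene, had 58.4 and 71.8 against 11.7 and 11.3. Chrm4, a muscarinic acetylcholine receptor gene, had 304 and 339.9 against 145 and 107. Atp10d, a phospholipid flippase gene, and Gpr37, an orphan receptor gene, also fell in the authors' deposited table, with log2 fold changes of -1.34 and -1.19. Laptm4b of the lysosome membrane (-0.53), Sel1l3 (-1.17) and Cgn, the tight junction protein cingulin (-0.73), fell by less in the authors' deposited table. Ifitm1, an interferon-induced membrane protein gene, had 906 and 1105 against 513 and 594.

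The remaining named genes that fell in the authors' deposited table had varied roles. Kctd14 had 4195 and 3374 normalized counts in wild type against 1578 and 1169 in the null, with the smallest adjusted p after Kdm6b among the lower named genes of the authors' deposited table (1.3e-12). Cyp1b1, a cytochrome P450 gene that oxidizes steroids and retinoids, had 1585 and 1669 against 859 and 1012, and Akr1cl, of the aldo-keto reductase family, had 734 and 952 against 386 and 495. Asns, which makes asparagine, had 1204 and 1293 against 701 and 822. The lipase-related gene Pnliprp2 had 297 and 268 against 97.5 and 97.8, and Nrn1, a neuritin gene of neurons, had 80.1 and 70.8 against 11.7 and 14.4. Scrt2, a zinc finger repressor gene of neurons, was at 119.7 and 107 in wild type against 21.5 and 8.23 in the null. In the authors' deposited table Etnk2, Gk5, Serpinb6a, Cpa1, Fkbp9, Fndc5, Klhl23, Sphkap and Pitpnm3 fell by log2 fold changes of -1.39 (Pitpnm3) to -0.38 (Fkbp9).

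Immune and ribosomal RNA genes were among the calls as well. H2-D1, a class I histocompatibility gene, had 575 and 578 normalized counts in wild type against 218 and 317 in the null, and H2-K1, its neighbour in class I function that was not called, had 255 and 230.3 against 73.2 and 157. Class I genes are close copies, so reads may be shared between them, and the 11 measured class I genes had a median of -0.01. Gbp2b, an interferon-induced GTPase gene, had 111 and 159 against 15.6 and 23.7. Ifi202b, another interferon-induced gene, had 22.8 and 40.9 in wild type and 0 in both null pools, which is at least 10.6-fold lower against the limit of 3 counts per library. In XX gonads both genes varied between pools of the same genotype. There Gbp2b had 86.3 and 15.2 in wild type against 28.9 and 110 in the null, and Ifi202b 44.6 and 10.1 against 0 and 37.4. Rn18s-rs5, a copy of 18S ribosomal RNA, fell from 30285 and 31804 to 19572 and 16821, and Lars2, a mitochondrial leucyl-tRNA synthetase gene, fell from 7379 and 7479.8 to 5391 and 4463, both called in the authors' deposited table. Poly(A) selection removes most ribosomal RNA, and the part of that step in the Rn18s-rs5 value was not tested. Of the 50 lower calls 12 were predicted genes or pseudogenes without a gene name. Among them was Gm15772, with 2886 and 2936 in wild type against 88.8 and 166 in the null, which is named here after its values were seen. Gm15772 also varied between XX wild type pools, at 4358 and 115.3 against 99.65 and 94.96 in the XX null. A low value of Gm15772 was thus also seen in a pool with intact Kdm6b, and the cause was not tested.

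The genes that rose in the authors' deposited table were fewer. Rps18, a ribosomal protein gene, had 5918 and 5956 normalized counts in wild type against 10605 and 11928 in the null (log2 fold change 0.92, adjusted p = 8.7e-14 in the authors' deposited table). Glo1, which detoxifies methylglyoxal, had 1487 and 1995 against 4147 and 3797. Ctse, the protease cathepsin E, had 5.94 and 5.98 against 88.8 and 187, and Ros1, a receptor tyrosine kinase gene, had 17.8 and 35.9 against 159 and 175. In all 4 genes both null pools exceeded both wild type pools, although the null values of Ctse differed from each other. Ctse also varied between XX pools with intact Kdm6b, at 216 and 16.2 in wild type against 12.0 and 3.03 in the XX null.

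Dcx, a microtubule protein gene of young neurons, had 228 and 199 normalized counts in wild type against 465 and 447 in the null. Tubb2a, a tubulin gene, had 757 and 791 against 1101 and 1112, and Cux2, a homeobox gene, had 978 and 962 against 1758 and 1356. The 16 genes of neural crest and neurons, which include Dcx, had a median of -0.09. Of that list Th, the enzyme gene for catecholamines, had 229 and 365 in wild type against 160.0 and 153 in the null, and Hand2, a factor of sympathetic neurons and other mesenchyme, had 807 and 836 against 1015 and 1167. G6pc2, a glucose-6-phosphatase gene, Nr1h5, a nuclear receptor gene, Eda, the ectodysplasin ligand gene, and Scrn1 also rose in the authors' deposited table, with log2 fold changes of 1.16, 1.22, 0.96 and 0.74. The mitochondrial gene mt-Nd3 had 2.97 and 3.99 against 91.7 and 27.8. It varied between XX pools of the same genotype, at 5.82 and 59.7 in wild type against 29.9 and 1.01 in the null. The 17 mitochondrially encoded genes had a median of 0.12 in XY, 9 higher without overlap (16.6% of all genes were) and 0 lower.

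Hox genes, the homeobox factors that pattern the body axis, had mostly higher values in the XY null. Of 39 listed, 37 were measured (Hoxc12 and Hoxc13 were below the minimum), with a median of 0.41, 34 positive values, 19 higher without overlap (16.6% of all genes were) and 0 lower. Hoxa6 had 315 and 313 normalized counts in wild type against 479.9 and 529 in the null, Hoxb5 had 244 and 256 against 380.4 and 374, and Hoxa3 had 529 and 628 against 855 and 832. Hoxc9 had 428 and 398 against 581 and 545. None passed limma (adjusted p = 0.36 for Hoxa6) or the authors' deposited table (adjusted p = 0.057 for Hoxa6). The genes were split along the clusters after the values were seen, and no difference between the parts was tested. All 27 measured genes of paralogue numbers 1 to 9 had positive log2 fold changes, 18 without overlap and with a median of 0.36. Of the 10 measured genes of numbers 10 to 13, 7 had positive values and 1 had groups without overlap, with a median of 0.62.

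In these most posterior Hox genes, other than Hoxc10, the replicate number separated the libraries more than the genotype did. Hoxd13 had 643 and 48.8 normalized counts in wild type replicates 1 and 2 against 542 and 24.7 in null replicates 1 and 2. Hoxa13 had 199.8 and 32.9 against 270.2 and 9.26, and Hoxd12 had 196 and 6.98 against 229 and 11.3. Hoxb13 had 34.6 and 0 in wild type against 21.5 and 0 in the null. Hoxb1, of the lowest paralogue number, went the same way, with replicate 1 above replicate 2 by 2.90 log2 units in wild type and 1.90 in the null. The pools numbered 1 were thus high and the pools numbered 2 low in both genotypes. Shh, a signal of posterior gut and limb tissue among other places, had the same pattern, at 230.5 and 13.96 against 239 and 14.4. Over all 16821 genes, 44 were at least 2 log2 units higher in replicate 1 than in replicate 2 in both genotypes, 13 were higher in replicate 2 in both, and 10 went opposite ways. None of these 67 genes was called in the authors' deposited table. What the pools numbered 1 have in common, and its part in the Hox values, was not tested. Within replicate number 1 the Hox median of null minus wild type was 0.32, and within number 2 it was 0.45. Without wild type replicate 2 the Hox median was 0.24.

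**Figure D2:**
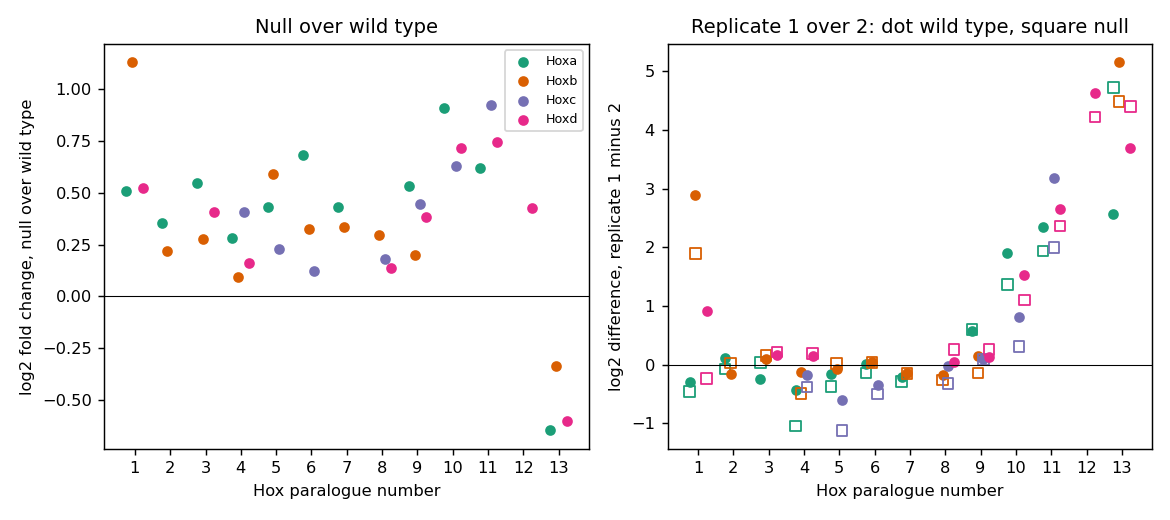
Hox genes by paralogue number (x axis), coloured by cluster: left, log2 fold change of null over wild type; right, log2 difference of replicate 1 minus replicate 2 within wild type (dots) and null (squares). Genes numbered 1 to 9 lie above 0 on the left, and those from number 10 on rise on the right in both genotypes, reaching 5.15 for Hoxb13 in wild type. Hoxb1 is also high on the right in both genotypes.

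Other cell types of the gonad differed in their own ways between the pools. Macrophage genes had a median of 0.35 over 15 measured genes, with 9 higher without overlap (16.6% of all genes were) and 1 lower. Csf1r, the receptor that macrophages need to survive, had 479 and 499 normalized counts in wild type against 816 and 809 in the null and rose in the authors' deposited table (adjusted p = 0.0011). Cx3cr1, a chemokine receptor gene of these cells, had 252 and 301 against 374 and 403, and Adgre1, which encodes F4/80, had 133 and 121 against 195 and 177. Mrc1, a mannose receptor gene, had 599 and 702 against 637 and 606, and Cd68 had 188 and 193 against 184 and 180.1. The list was thus divided between genes higher in both null pools and genes near wild type, and without null replicate 2 its median was 0.19.

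Germ cell genes had a median of 0.29 over 15 measured genes, with 14 positive and 1 higher without overlap (16.6% of all genes were). Pou5f1, a pluripotency factor gene kept in germ cells, had 65.3 and 218 normalized counts in wild type against 205 and 207 in the null, so that wild type replicate 1 stood below the 3 other pools. Ddx4, a germ cell RNA helicase gene, had 20.8 and 91.7 against 166 and 79.3. Kit, the receptor for the Kitl product, had 1322 and 1747 against 2522 and 1678, with overlapping groups. The germ cell median was 0.85 for null 1 minus wild type 1 and -0.15 for null 2 minus wild type 2. With 1 library left out it ran from 0.10 (without wild type replicate 1) to 0.72 (without null replicate 2).

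Red cell genes varied with the library. Hbb-bt, an adult beta globin gene with a near-identical copy, had 193 and 371 normalized counts in wild type against 1289.5 and 1667 in the null and rose in the authors' deposited table (log2 fold change 2.39). The list of 13 measured red cell genes had medians of -0.27 in null replicate 1 and 1.25 in null replicate 2, and the list median was 0.14 without wild type replicate 1 and 0.85 without wild type replicate 2. Hba-a1, an alpha globin gene, had 4329.9 and 7984 against 7728 and 18189.8. Of the 13 genes 12 had positive log2 fold changes, but only 1 was higher and 1 lower without overlap (16.6% and 16.3% of all genes were). Other globin genes went differently, with Hba-a2 at -3.84 and Hbb-bs at 0.08 in the authors' deposited table, neither of them called. In XX gonads Hbb-bt averaged 2416 in wild type and 672 in the null, and the authors' deposited XX table did not call it. Endothelial genes had a median of -0.23, with 13 of 14 negative and 3 lower without overlap (16.3% of all genes were), and the median was 0.03 without wild type replicate 2 and -0.12 without null replicate 2. Tek, the angiopoietin receptor gene, had 1063 and 1602 in wild type against 996 and 875 in the null.

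Interstitial progenitor genes were divided. Nr2f2, a nuclear receptor gene of these cells, had 6698 and 6143 normalized counts in wild type against 9013 and 8127 in the null, higher without overlap, whereas Pdgfrb, a growth factor receptor gene of mesenchyme, had 4399 and 4617 against 3891 and 3396, lower without overlap. The 12 genes had a median of -0.08, and of 0.09 without null replicate 2. Of the 20 glycolysis and hypoxia genes 17 were negative, with a median of -0.18 (-0.06 without null replicate 1) and 8 lower without overlap (16.3% of all genes were). Adm, the vasodilator adrenomedullin, had 124 and 187 in wild type against 44.9 and 83.4 in the null, and Ldha, lactate dehydrogenase A, had 8525 and 10220.3 against 6613 and 8449.5. Neither gene was called.

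The remaining lists had medians between -0.22 and 0.10. Notch genes had a median of -0.22 over 17 measured (-0.40 without wild type replicate 1 and -0.05 without wild type replicate 2), with Dll4, an endothelial ligand gene, at 296 and 353 normalized counts in wild type against 253 and 181 in the null. BMP genes had a median of 0.09, Hedgehog genes 0.03, FGF and ERK feedback genes 0.00, and insulin and IGF genes -0.02. The medians were -0.01 for p53 targets, 0.01 for immediate early genes, 0.04 for imprinted genes, -0.02 for collagens, 0.10 for coelomic epithelium and 0.02 for mesonephros and duct. Liver and yolk sac proteins had a median of -0.05, from 7 of 13 genes measured. Behind some of these medians the null pools lay on opposite sides of the wild type mean. Hedgehog genes had medians of 0.14 in null replicate 1 and -0.26 in null replicate 2, and collagens 0.22 and -0.29. Coelomic epithelium genes had medians of -0.11 and 0.30, mesonephros and duct genes -0.10 and 0.28, and liver and yolk sac proteins 0.56 and -0.67. Cytosolic ribosomal protein genes had a median of -0.07 over 81 genes, at -0.30 in null replicate 1 and 0.17 in null replicate 2, and Rps18 with 2 others was higher without overlap (16.6% of all genes were).

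**Figure D3:**
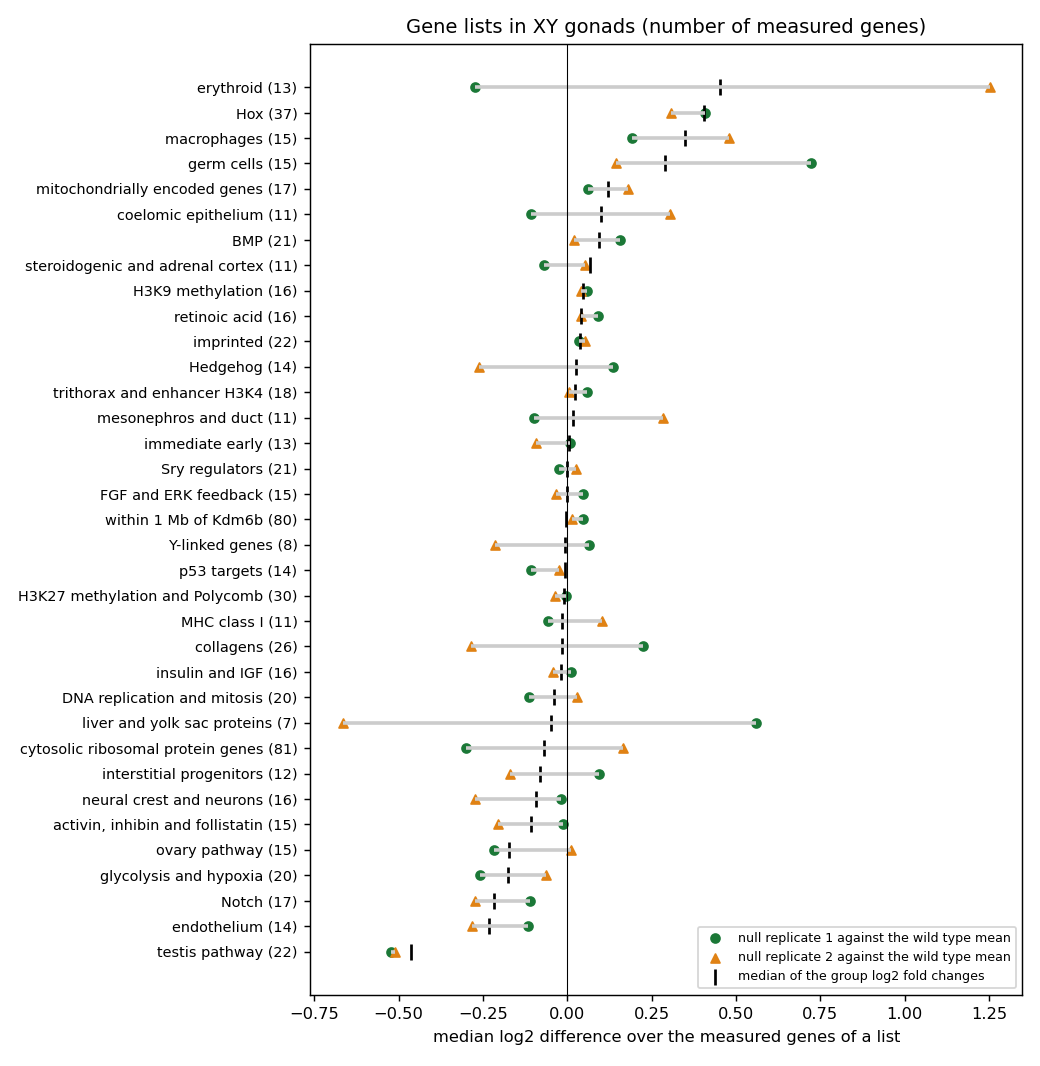
Median log2 difference (x axis) over the measured genes of each list (y axis, number of genes in brackets), for null replicate 1 (circles) and null replicate 2 (triangles) against the wild type mean; ticks mark the median of the group log2 fold changes. The testis pathway lies near -0.5 in both null pools and Hox genes lie above 0 in both, while red cell genes run from -0.27 to 1.25.

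Genes beside Kdm6b had the median of all genes. The 80 measured genes within 1 Mb of Kdm6b, leaving out Kdm6b and Kdm6bos, had a median of 0.00, with 18 higher and 15 lower without overlap (16.6% and 16.3% of all genes were). The gene with the smallest p was Atp1b2, a sodium pump subunit gene 186.1 kb away. It had 421 and 524 normalized counts in wild type against 285 and 264 in the null (log2 fold change -0.78, SE 0.15). Its adjusted p was 0.54 in limma and 0.0503 in the authors' deposited table (DESeq2). Shbg, which encodes the sex hormone-binding globulin, lay 201.1 kb away with 19.8 and 24.9 against 2.93 and 7.21. Rpl26, a ribosomal protein gene on the other side of Kdm6b, had 6259 and 6289 against 8538 and 14827. Alox12, a lipoxygenase gene, had 109 and 138 against 94.6 and 51.5, and Tnk1, a kinase gene, had 49.5 and 47.9 against 32.2 and 33.97. Of these neighbours none was called by limma or by the authors' deposited table. The other neighbours without overlap and with a log2 fold change of at least 0.5 in size averaged few counts (Sox15, Tnfsfm13, Tnfsf13, Gm25835, Gm44349 and Gm12312).

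Several of the calls lay together on chromosome 17. Of the 22 higher calls 5 were between 30 and 36 Mb there (GRCm38), a window drawn after the values were seen: Btbd9, Glo1, Dnah8, Rab11b and Rps18. Glo1 spans 30592866 to 30612659, Dnah8, an axonemal dynein gene, 30624354 to 30875264, and Rps18 33951999 to 33956001. Dnah8 had 39.6 and 80.7 normalized counts in wild type against 238 and 150.3 in the null. Btbd9 had 1008 and 1139 against 1717 and 1658, and Rab11b, a vesicle traffic GTPase gene, had 2188 and 2141 against 3235 and 2861. H2-D1, at 35262730 to 35267499, was the 1 lower call in the window. Of the 159 genes measured there, 54 were higher and 26 lower without overlap (16.6% and 16.3% of all genes were), with a median of 0.05. The authors' deposited table called 0.131% of all genes higher and 0.297% lower. As the window was drawn around the calls, nothing is read from these counts.

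The same genes were read in the XX libraries, other embryos that the XY calls did not use. Of the 14674 XY-tested genes with an adjusted p in the authors' deposited XX table, 285 were higher in the XX null (1.94%) and 110 lower (0.75%). By mean log2(normalized count + 1), 49.2% of all genes tested were lower in the XX null. Of the 50 genes lower in XY, 37 had a negative XX log2 fold change in the authors' deposited tables, Kdm6b and Kdm6bos among them. Of the 45 with an adjusted p there, 8 were called lower: Kdm6b, Rn18s-rs5, Gm15920, Ifitm1, Cacna1g, Ccnd1, Serpinb6a and Gm2044. Ccnd1 averaged 3021 normalized counts in XX wild type and 2156 in XX Kdm6b-null, and Cacna1g 2002 and 845. Gm15920 had 125.2 and 6.07 in XX wild type replicates 1 and 2 against 0.996 and 6.06 in the XX null. Its lower XX mean therefore rested on XX wild type replicate 1. Of the 22 genes higher in XY, 8 had a positive XX log2 fold change, and Ros1, Scrn1 and G6pc2 were called higher in the authors' deposited XX table. Rps18, Glo1 and Dnah8 were called lower there, opposite to XY.

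For 3 gonad genes lower in the XY null, the XX means lay close together. Lhx9 averaged 1149.5 normalized counts in XX wild type and 1134 in XX Kdm6b-null, Inhbb 171 and 179.6, and Kitl 1915 and 2023. The XY minus XX difference of the log2 fold changes was -0.96 for Lhx9 (limma adjusted p = 0.57), -1.53 for Inhbb (adjusted p = 0.57) and -0.55 for Kitl (adjusted p = 0.57). Tested over 17282 genes with all 8 libraries, this difference passed adjustment in limma for 0 genes (0%), with a smallest adjusted p of 0.24, while 1443 had an unadjusted p under 0.05 where 864 are expected by chance. Without XX wild type replicate 2 it passed for 29 genes. The smallest p among the calls was that of Glo1, whose means were 3946 in XX wild type and 1392 in XX Kdm6b-null (difference 2.68, limma adjusted p = 0.24). After adjustment, an effect particular to XY was thus not shown for any single gene. The XX wild type pools, which this test also used, differed from each other the most, with a median chi-square per gene of 4.28. It was 1.25 in the XX null, 1.45 in XY wild type and 2.42 in the XY null. Lhx9, for example, had 1381 and 918 normalized counts in the XX wild type pools. The XX libraries were normalized apart from the XY libraries, so levels are not compared across them.

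**Figure D4:**
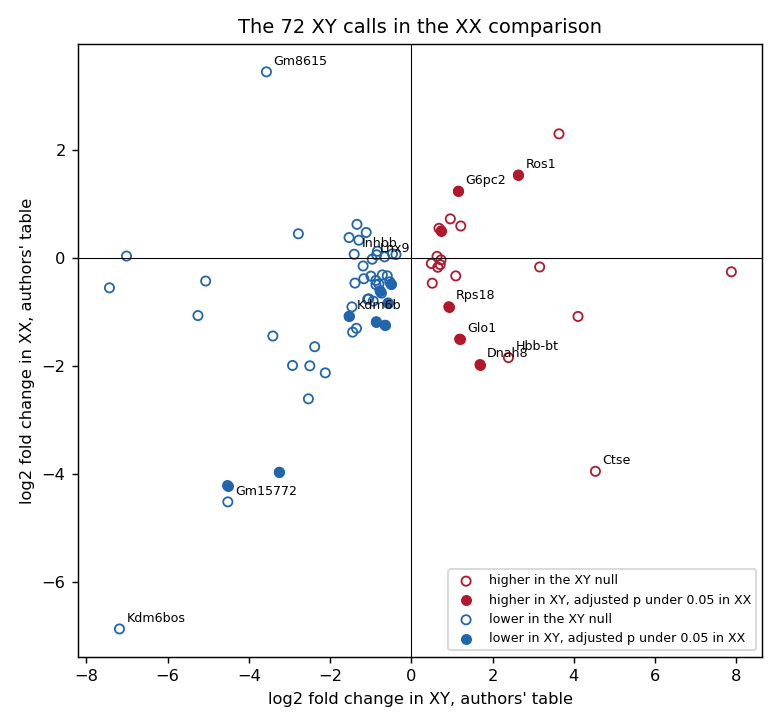
Log2 fold change in XY (x axis) and in XX (y axis), both from the authors' deposited tables, for the 72 genes called in XY; filled points were also called in XX. Kdm6b lies low in both sexes, Inhbb and Lhx9 lie near 0 in XX, and Glo1, Rps18 and Dnah8 lie at opposite signs.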

How the data were processed

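RNA of 8 libraries was sequenced with 100-base paired reads, per the labels. Tools listed in the submitters' processing notes are DESeq2 2.11.40.8, featureCounts 2.0.8, STAR 2.7.11 and cutadapt 4.9, with the build GRCm38 (mm10). The sources used here give no annotation release or strand setting. Each deposited value (a signal that is a normalized count) was made by the authors for 1 gene, with the sexes normalized apart. The authors' deposited tables give DESeq2 log2 fold changes with adjusted p-values, and their score was not used. Values were whole multiples of 1 step per library, read as 1 count for depth.

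Limma 3.58.1 in R 4.3.3 was run here on log2(normalized count + 1) with a variance trend and Benjamini-Hochberg adjustment at 0.05. This scale understates changes of genes with few counts. It was tested on simulated data. The members, the 31 lists (532 genes) and the tests were chosen with earlier results of these data known. Named were 15 fixed genes, the authors' named calls (as limma made 0), up to 4 genes of smallest p per list, the largest gaps between null pools, and neighbours of Kdm6b. A promoter window was matched for 28 of 50 lower and 14 of 22 higher calls, and for 11642 of all 16821 genes. At least 10 CG dinucleotides were in 60.7%, 57.1% and 79.4% of these windows. As many calls lack a window, nothing is read from these shares.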

Additional observations from a re-analysis of the deposited data

How the results depend on the processing

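Limma called 0 genes in XY, and also 0 with pseudocounts of 0.5 or 5, no filter on low values, a mean of at least 50, median scaling or all 8 libraries in 1 fit. Leaving out 1 library at a time gave 0 to 2 calls, the lone library being assumed to vary like the other group. The replicate number as a replicate block gave 23 calls, of which 22 were also in the authors' deposited table (the other being Hba-a1). They include Kdm6b, Inhbb, Lhx9, Kctd14, Glo1 and Rps18 and not Sry. There are only 2 pairs of shared numbers and the labels do not say what a number marks, so whether they pair the pools is not known. The correlation of same-numbered deviations from the group means was 0.245. Tests of counts with edgeR and DESeq2 were not run, since the steps of the wild type libraries lie too near 1.

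The XY minus XX difference gave 0 to 29 calls over the libraries left out in turn, the 29 without XX wild type replicate 2. Of the XY calls, 11 were called in the same direction in XX at an adjusted p under 0.05, and 2 of 50 calls at 0.01. The testis pathway median was -0.59 with no filter on low values and -0.52 to -0.47 over the libraries left out in turn. The Hox median was 0.24 to 0.42 and the ovary median -0.22 to 0.012, the last without null replicate 1. Medians changed sign in many lists when 1 library was left out, mostly in lists near 0, such as Hedgehog, collagens, retinoic acid, steroidogenic genes, interstitial progenitors and Sry regulators. Coelomic epithelium ran from -0.11 to 0.304 (-0.07 without XY wild type replicate 2 and -0.11 without null replicate 2), endothelium from -0.374 to 0.0286 (the last without XY wild type replicate 2) and red cell genes from -0.273 (without null replicate 2) to 1.25. Single genes turned as well: Fst ran from -0.812 to 0.0325 and Sox9 from -0.753 to 0.29, both positive without null replicate 2, and Sox8 from -0.427 to 0.0233, positive without XY wild type replicate 2. Wnt4 ran from -0.73 to 0.385 and Wt1 from -0.456 to 0.172, both positive without null replicate 1. The cause of these turns was not tested. Depth limits values near 3 counts, such as those of Kdm6bos and Ifi202b in the null.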
